A study of Mus musculus with 6 samples.

Results

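Astrocytes are the glial cells that clear glutamate from synapses, buffer ions and couple to each other through gap junctions. The 8 genes described here, Gfap, Slc1a2, Slc1a3, Glul, S100b, Gja1, Gjb6 and Sparcl1, are in common use as astrocyte markers and were chosen by name, 8 of the 18437 mRNAs listed in any library. Their ribosome density was followed across 6 Ribo-seq libraries to see which of them were restricted to the library that carried brain markers and which were also translated in other organs. Ribo-seq sequences the mRNA fragments that translating ribosomes protect. The libraries came from untreated wild-type (WT) C57BL/6J mice aged 4 weeks, with 1 library each for small intestine, lung, kidney, heart, colon and brain by label. The labels give no sex and do not say whether animals were pooled. Density is given as RPKM, the reads on a coding sequence (CDS) divided by its length and by the library's total of such reads, so that levels can be compared between genes as well as between libraries.

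The markers of brain tissue did not lie under the label brain. Snap25, Mbp and Stmn2, the 3 brain markers, were all highest in the library labelled small intestine. The 3 markers of small intestine were highest in the library labelled brain, the 3 of colon in that labelled kidney and the 3 of kidney in that labelled colon. Those of heart and of lung were highest under their own labels. The libraries are named by label throughout, and a level in an organ holds for the label alone. Between 4504853 and 10635031 reads per library were recovered from the RPKM values (median 7687498), and 11520 to 15028 mRNAs had at least 1 read. Each label had 1 library, so replicate error could not be measured and no test was run. The intervals below are 95% intervals of counting error, exact Poisson for a level and exact conditional binomial for a ratio, and reads carried no molecular identifiers. Where a gene had no reads, the RPKM that 3 reads would give is stated as its limit. In bulk tissue, fewer cells of a type and less RNA per cell cannot be told apart.

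The 8 genes serve several roles in astrocytes. Slc1a2 (GLT-1) and Slc1a3 (GLAST) encode the glial transporters that take up glutamate with sodium, and Glul encodes glutamine synthetase, which turns that glutamate and ammonia into glutamine. Gja1 (connexin 43) and Gjb6 (connexin 30) form gap junctions between astrocytes. Gfap is an intermediate filament of the cytoskeleton, S100b a small calcium-binding protein and Sparcl1 (hevin) a secreted matrix protein that promotes synapse formation. Outside the brain, glutamine synthetase is known for ammonia removal in liver and muscle, and connexin 43 for electrical coupling of the heart's ventricular muscle.

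Several of these genes have close relatives, so the sequences decide whether their reads can be told apart. Over the aligned CDS, 65.1% of bases were identical between Slc1a2 and Slc1a3, 65.8% between Gja1 and Gjb6 and 67.5% between Gfap and Vim, the gene of the filament vimentin. The encoded proteins shared 52.8%, 43.5% and 57.8% of aligned residues. The stretches below are 90 aligned bases around the longest run of identical bases of the transporter pair, shown because the ratio of its members changed between libraries. They come from the CDS of the transcripts that were counted (GENCODE M39 on GRCm39), with the bases that differ within the pair in capitals. Positions count from 1 at the A of the start codon. The stretches run from base 1144 to 1233 of Slc1a2 and from 1150 to 1239 of Slc1a3, and 17 bases differ.
Slc1a2: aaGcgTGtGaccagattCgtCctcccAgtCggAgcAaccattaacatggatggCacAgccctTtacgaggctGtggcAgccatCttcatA
Slc1a3: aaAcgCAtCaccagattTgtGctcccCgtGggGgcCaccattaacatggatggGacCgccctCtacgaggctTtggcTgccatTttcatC
The longest run of identical bases was 17 between the transporters, 13 between the connexins and 20 between the filaments, each shorter than a ribosome footprint. Every window of 29 bases in the CDSs of the 8 genes was found in no other of 18306 mRNAs, so reads of that length with no mismatch map to 1 gene. The 8 CDSs ranged from 276 bases (S100b) to 1950 bases (Sparcl1). Codons ending in G or C made up between 51.2% (Sparcl1) and 78.3% (S100b) of their codons, and 7 of the 8 lay above the median of 60.4% over 18154 CDSs.

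A gene was called restricted when its RPKM in the library labelled small intestine, which carried the brain markers, was at least 10-fold over the highest of the other 5 libraries. This held for 4 of the 8 genes, namely Gfap, Slc1a2, Slc1a3 and Gjb6. Among the 12558 mRNAs with at least 100 reads over the 6 libraries, 5.65% passed the same fold. Another 3 genes, S100b, Sparcl1 and Glul, were highest in that library by less than 10-fold, so that 7 of the 8 were highest there, against 21.1% of all mRNAs. Gja1 was highest in the library labelled heart. The library labelled small intestine held a median of 88.9% of the RPKM summed over the 6 libraries for the 8 genes and 12.32% for all mRNAs. The 8 genes and the lists below were chosen with earlier results of these data known. Their counts beside the shares of all mRNAs are therefore descriptive.

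**Figure D1:**
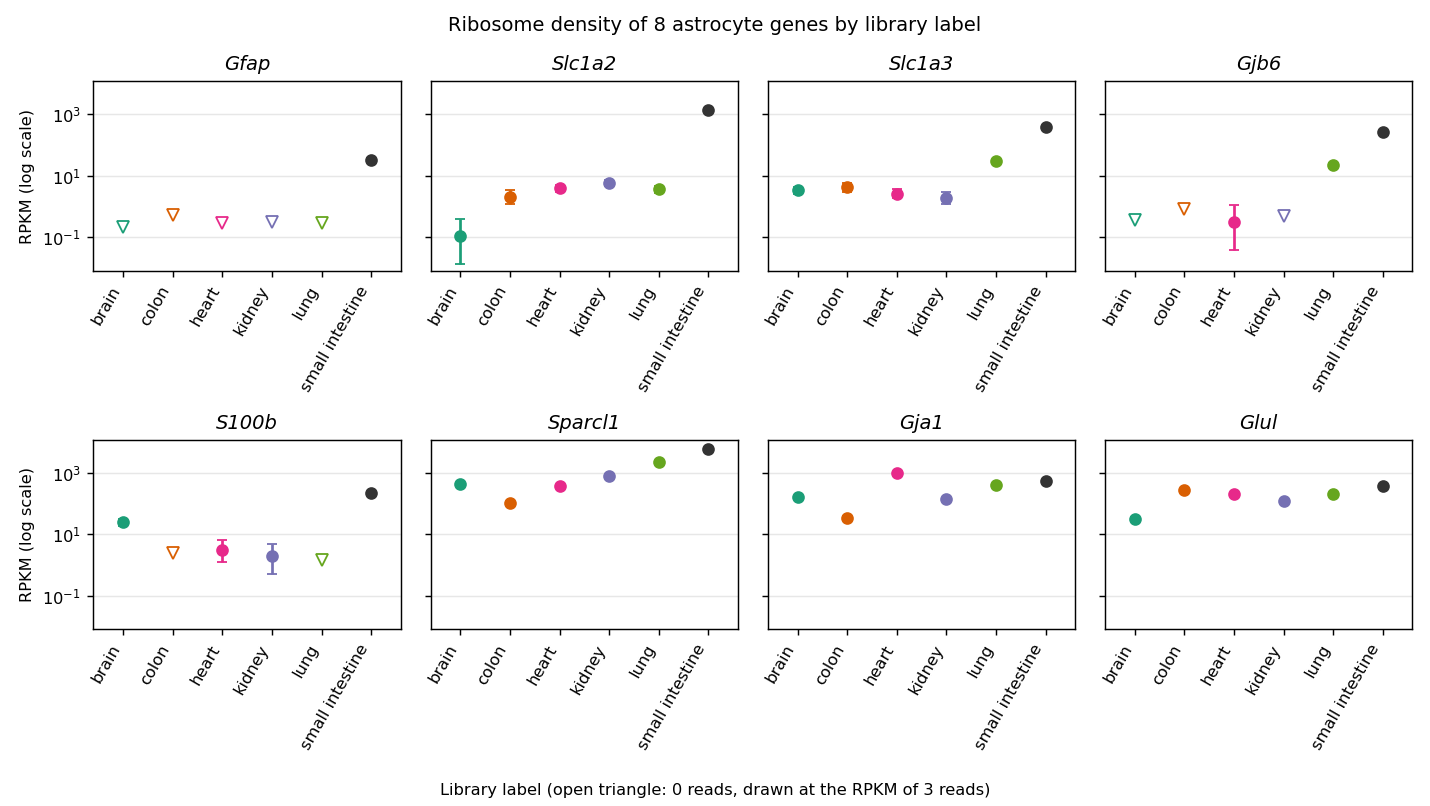
RPKM of the 8 genes (log axis) in the 6 libraries named by label, with bars for the 95% Poisson interval of counting error and open triangles for libraries with 0 reads, drawn at the RPKM of 3 reads. Gfap has reads under 1 label, and Slc1a2, Slc1a3, Gjb6 and S100b are well above the other libraries under the label small intestine. Slc1a2, Slc1a3, Sparcl1, Gja1 and Glul have reads in all 6.

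Gfap lies on the minus strand of chromosome 11 (GRCm39, 102778159 to 102791738). It had 328 reads in the library labelled small intestine, or 33.3 RPKM (interval 29.8 to 37.1), and no read in the other 5. There 3 reads would have given 0.219 RPKM under the label brain, 0.516 under colon, 0.284 under heart, 0.307 under kidney and 0.301 under lung. Against the highest of these limits the library labelled small intestine was 64.4-fold higher. With the library labelled colon left out, which had the fewest reads, it was 108.5-fold higher. Against the 0 reads under colon, the interval of the ratio began at 52.1-fold. Gfap was thus the gene with reads under 1 label alone, and it was also the lowest of the 8 in that library, at rank 2735 by RPKM. Vim, the gene of the filament of mesenchymal cells, was distributed the other way, with 8.23 RPKM under the label small intestine and 491 RPKM under lung. Gfap was 4.04 times Vim (3.18 to 5.17) in the library labelled small intestine, while the other 5 had between 278 and 5310 reads of Vim and none of Gfap. Of the RPKM of 10 intermediate filament genes under that label, the neurofilament genes Nefm and Nefl held 36.9% and 35.7% and Gfap 1.97%. Enteric glia are known to contain GFAP, and the libraries labelled brain and kidney, which carried the intestinal markers, were among those with no read.

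Slc1a2 lies on chromosome 2 from 102488574 to 102621129 on the plus strand. Its level was 0.11 RPKM (2 reads) under the label brain, 2.07 under colon (16 reads), 3.92 under heart (55 reads), 5.92 under kidney (77 reads), 3.62 under lung (48 reads) and 1393 under small intestine (18272 reads). The last is rank 58 of that library. It was 235.4-fold (188.2 to 298.4) over the library labelled kidney, the next in order. Heart and lung, and lung and colon, did not differ beyond counting error.

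Slc1a3, on chromosome 15 from 8663604 to 8741595 on the minus strand, had 3.41 RPKM under the label brain, 4.22 under colon, 2.63 under heart, 1.94 under kidney, 29.3 under lung and 376.3 under small intestine. The library labelled lung stood apart from the lower 4, at 6.94-fold (4.80 to 10.4) over that labelled colon, from 369 reads. Neighbours among the lower 4 did not differ beyond counting error. The level under small intestine was 12.8-fold (11.6 to 14.3) over lung and, with the library labelled lung left out, 89.1-fold over the next.

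The transporter that dominated changed with the library. Slc1a2 was 3.70 times Slc1a3 (3.58 to 3.82) under the label small intestine and 0.124 times (0.0894 to 0.167) under lung, and these intervals do not overlap. Under kidney the ratio was 3.05 (1.91 to 5.04), from 77 and 24 reads, which overlaps the former. Under heart the ratio of 1.49 had an interval that included 1 (0.959 to 2.35). Slc1a3 was also the higher under brain and colon. The ratio was 0.0322 (0.00381 to 0.122) under brain, from 2 and 59 reads, and 0.49 (0.25 to 0.924) under colon, from 16 and 31 reads. Of the RPKM of 7 SLC1 genes, the family of glutamate and neutral amino acid transporters, Slc1a2 held 64.8% and Slc1a3 17.5% under the label small intestine. Slc1a3 held 16.7% under lung. In the other libraries the family was led by genes outside the list. Slc1a1, the transporter of neurons and of kidney and gut epithelium, led in the libraries labelled brain (53.9%) and colon (71.5%), and Slc1a5, a carrier of neutral amino acids, in those labelled heart (51.4%), kidney (46.7%) and lung (40.3%). Slc1a5 was at 3.46 RPKM under the label small intestine and between 26.6 and 131.2 RPKM elsewhere.

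Glul, on chromosome 1 from 153775690 to 153785469 on the plus strand, was the most evenly spread of the 3 glutamate genes. It had 32.0 RPKM under the label brain, 278.9 under colon, 198.2 under heart, 117.6 under kidney, 202.8 under lung and 376.5 under small intestine. The highest library exceeded the next, labelled colon, by 1.35-fold (1.27 to 1.44), and the library labelled brain was the low one, 3.67-fold (3.26 to 4.15) below that labelled kidney. Lung and heart did not differ beyond counting error. Glul and Slc1a3 were level with each other under the label small intestine, at ranks 278 and 279, but Glul was above Slc1a3 in each of the other 5.

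Of the 18 other genes of glutamate and glutamine handling, 17 had at least 100 reads. Of these, 7 were highest in the library labelled small intestine and 5 passed 10-fold there, against 21.1% and 5.65% of all mRNAs. Those 5 were genes of neurons, namely Slc17a6 and Slc17a7, which load glutamate into synaptic vesicles, Gad1 and Gad2, which make GABA, and the transporter Slc1a6.

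**Figure D2:**
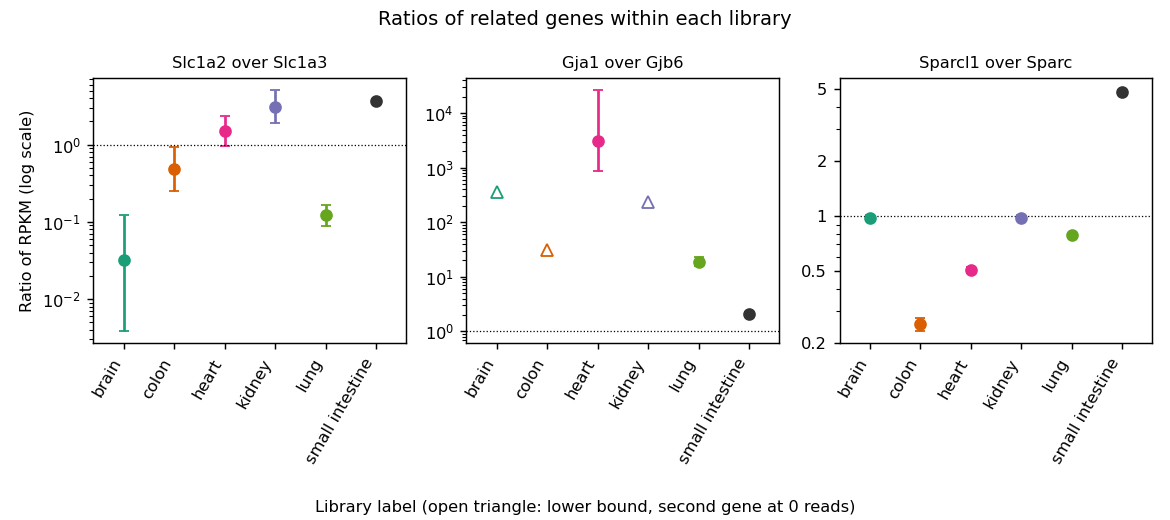
Ratio of RPKM (log axis) of related genes within each of the 6 libraries named by label, with 95% binomial intervals of counting error and open triangles for lower bounds where the second gene had 0 reads. Slc1a2 over Slc1a3 lies on both sides of 1, Gja1 over Gjb6 is lowest under the label small intestine (2.12), and Sparcl1 over Sparc is above 1 only there (4.80).

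Gja1, on chromosome 10 from 56253241 to 56278609 on the plus strand, was the member that was not highest in the library with brain markers. It had 156.7 RPKM under the label brain, 33.3 under colon, 986.5 under heart (9251 reads, rank 128), 144.9 under kidney, 412.9 under lung and 547.7 under small intestine. Heart exceeded small intestine by 1.80-fold (1.74 to 1.87), and small intestine exceeded lung by 1.33-fold (1.27 to 1.39). All neighbours in the order differed beyond counting error, the closest being brain over kidney at 1.08-fold (1.01 to 1.16). The 5 cardiomyocyte markers were all highest under the label heart as well, with a summed 52490 RPKM there and between 9.87 and 435.0 RPKM elsewhere and none at 0. Their part in the level of Gja1 was not tested.

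Gjb6, on chromosome 14 from 57360757 to 57371087 on the minus strand, was far narrower. It had 258.9 RPKM (1550 reads) under small intestine, 21.8 RPKM (132 reads) under lung, 0.312 RPKM (2 reads) under heart and no reads under brain, colon and kidney. There 3 reads would have given 0.3603 RPKM under brain, 0.8505 under colon and 0.5052 under kidney. Gjb6 was 11.9-fold (9.94 to 14.3) over the library labelled lung, so the interval reaches below 10, and 829.6-fold over the next with lung left out. Slc1a3, Gjb6 and Sparcl1 had the library labelled lung as their next highest. Of 12558 mRNAs, 3367 were highest under lung, more than under any other label.

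Within the connexins, Gja1 exceeded Gjb6 in every library, by 2.12-fold (2.00 to 2.24) under small intestine, 18.9-fold (15.9 to 22.7) under lung and 3160-fold (874.6 to 26100) under heart. Of the RPKM of 18 connexin genes, Gja1 held 93.9% under heart, 62.3% under brain, 44.9% under small intestine, 40.6% under kidney, 29.6% under lung and 5.15% under colon. Gjb6 was the next connexin under small intestine, at 21.2%. Gja4, a connexin of arterial endothelium, led under lung with 891.3 RPKM, and Gjb2, a connexin of epithelia, led under colon with 377.5 RPKM. Of the other 21 connexins and pannexins, 12 had at least 100 reads. Of these, 3 were highest under small intestine, a share near the 21.1% of all mRNAs. Of the 12, 1, the neuronal Gjd2, passed 10-fold there, against 5.65% of all mRNAs. Below that filter Gjc3 had reads (59) under small intestine alone.

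S100b, on chromosome 10 from 76085090 to 76097159 on the plus strand, has the shortest CDS of the 8. It had 211.4 RPKM (446 reads) under small intestine, 24.5 RPKM (72 reads) under brain, 3.10 RPKM (7 reads) under heart, 1.91 RPKM (4 reads) under kidney and no reads under colon and lung. There 3 reads would have given 2.41 RPKM under colon, above the level under kidney, and 1.41 under lung. The library labelled small intestine was 8.62-fold (6.71 to 11.2) over that labelled brain, an interval that includes 10, and 68.2-fold over the next with the library labelled brain left out. S100b therefore missed the 10-fold limit through the library with small intestine markers, and it passed the limit when values were scaled as TPM or by median-of-ratios size factors. Heart and kidney, and kidney and colon, did not differ beyond counting error.

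Of 7 markers of peripheral and enteric glia, which also contain S100b, 6 had reads in any library, Foxd3 having none. Of these, 3 were at 0 in the library labelled brain, Sox10 among them. Erbb3 (151.2 RPKM) and Pmp22 (99.3 RPKM), which epithelia also express, and Cdh19 (5.94 RPKM) were not. The summed RPKM of the glial markers was 256.5 there, between 29.7 and 217.7 in the libraries labelled colon, heart, kidney and lung, and 2023 under small intestine. Their part in the level of S100b was not tested.

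S100b was 4.03 times S100a1 (3.27 to 5.0), a relative known from heart muscle, under small intestine. Under heart S100a1 reached 1008 RPKM and the ratio was 0.00308 (0.00124 to 0.00635). S100b held 20.3% of the RPKM of 14 S100 genes under small intestine and at most 0.157% elsewhere. Of the other 15 S100 genes, 10 had at least 100 reads. Of these, 0 were highest in the library labelled small intestine, against 21.1% of all mRNAs. Below that filter S100z, with 16 reads, was highest there.

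Sparcl1, on chromosome 5 from 104226288 to 104262065 on the minus strand, had the highest RPKM of the 8 genes in the libraries labelled brain, kidney, lung and small intestine, but was below Gja1 under heart and below Glul under colon. It had 431.5 RPKM under brain, 100.3 under colon, 369.4 under heart, 792.6 under kidney, 2161 under lung and 5700 under small intestine. It ranked 9 of all mRNAs under small intestine (84963 reads) and 31 under lung. All neighbours in its order differed beyond counting error. Small intestine exceeded lung by 2.64-fold (2.60 to 2.67), and by 7.19-fold the next library with lung left out.

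The 6 endothelial markers were all highest under the label lung, with a summed 2470 RPKM there, between 68.7 and 507.5 RPKM elsewhere and none at 0. Under small intestine, where Sparcl1 was highest, their sum was the lowest of the 6 libraries. Sparcl1 is also known from vascular cells, and the part of these cells in its levels was not tested. Sparc, the relative that binds collagen, was highest under lung (2749 RPKM), and Sparcl1 was 4.80 times Sparc (4.70 to 4.91) under small intestine and below or level with it elsewhere. The ratio was 0.982 (0.952 to 1.01) under kidney, 0.977 (0.943 to 1.01) under brain, 0.786 under lung, 0.507 under heart and 0.255 under colon. Sparcl1 held 65.9% of the RPKM of 8 genes of its family under small intestine and between 17.5% and 44.5% elsewhere. Of the other 7 genes of the family, all with at least 100 reads, 4 were highest under small intestine. Spock1 and Spock3, proteoglycans of neurons, passed 10-fold. Of all mRNAs, 21.1% were highest there and 5.65% passed 10-fold.

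**Figure D3:**
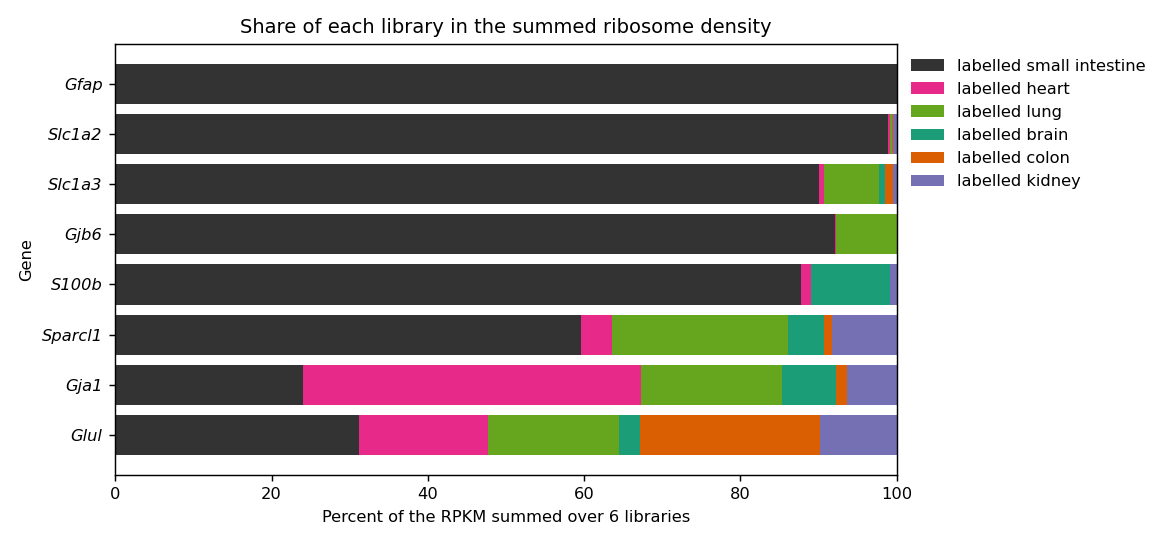
Percent of the RPKM summed over the 6 libraries that each library held, for each of the 8 genes, with libraries named by label. The library labelled small intestine holds 100% for Gfap, 98.9% for Slc1a2 and between 87.7% and 92.1% for S100b, Slc1a3 and Gjb6, but 59.7% for Sparcl1, 31.2% for Glul and 24.0% for Gja1, where the library labelled heart holds 43.2%.

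The 8 genes therefore ranged from 100% to 24.0% of their summed RPKM in 1 library. Over all neighbours in the 8 orders, 24 of 40 differed beyond counting error, 9 did not and 7 had no reads on either side. With each of the other 5 libraries as the high one, between 0.287% (labelled kidney) and 1.57% (labelled lung) of mRNAs passed the same 10-fold limit, fewer than with the library labelled small intestine.

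Markers of neurons and oligodendrocytes were set beside the 8 genes in the other 5 libraries, in which gut and heart have neurons of their own. The 7 neuron markers summed to 10790 RPKM under small intestine and to between 6.84 and 122.0 RPKM elsewhere, and the 6 oligodendrocyte markers to 5350 RPKM and to between 12.1 and 46.0 RPKM. As a percent of the level under small intestine, the median neuron marker was at 0.476% under brain, 0.105% under colon, 0.290% under heart, 1.01% under kidney and 0.0283% under lung. The median oligodendrocyte marker was between 0.0258% and 0.149%. Rbfox3 was at 0 under brain, colon, heart and lung, and Mobp in all 5. The highest single markers were Stmn2 under lung (34.7%) and Mbp under brain (24.1%).

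Glul, Gja1 and Sparcl1 lay above every neuron marker in each of the 5 libraries and above every oligodendrocyte marker under heart, kidney and lung. Mbp lay above Glul and Sparcl1 under brain, at 24.1%, and above Gja1 and Sparcl1 under colon, at 8.99%. Glul was between 8.5% and 74.1% of its level under small intestine, Gja1 between 6.08% and 180.1% and Sparcl1 between 1.76% and 37.9%. Slc1a2 was between 0.00787% and 0.425%, within the range of the neuron markers. Slc1a3 was at 7.79% and Gjb6 at 8.42% under lung, below Stmn2 and the oligodendrocyte markers Cnp (12.0%) and Mbp (8.79%) and above the other neuron and oligodendrocyte markers. S100b was at 11.6% under brain, above the neuron marker with the highest percent, Syn1 (5.15%), and below the oligodendrocyte marker Mbp (24.1%). Whether any of these reads came from brain material was not tested.

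**Figure D4:**
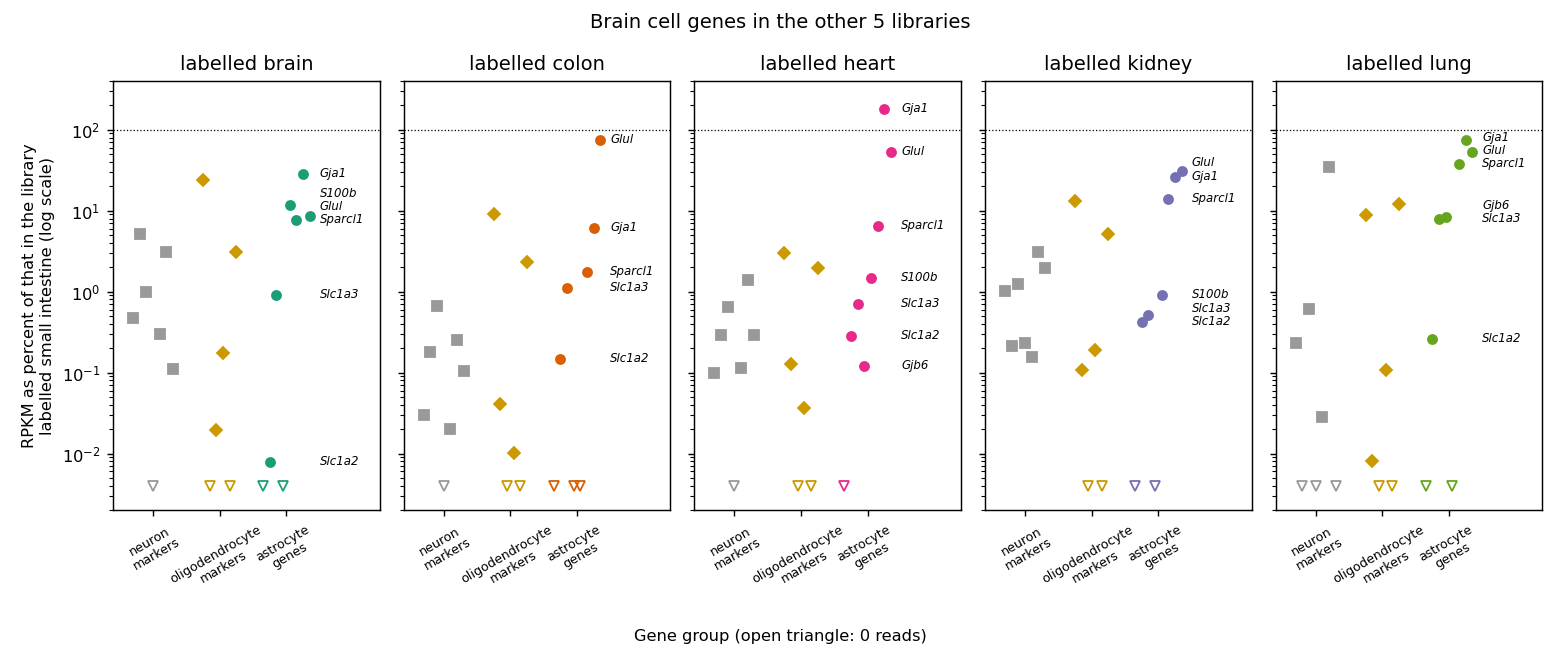
RPKM as percent of that in the library labelled small intestine (log axis, dotted line at 100%) in the other 5 libraries, for 7 neuron markers, 6 oligodendrocyte markers and the 8 astrocyte genes, with open triangles for 0 reads. Glul, Gja1 and Sparcl1 lie above every neuron marker in all 5 panels, the oligodendrocyte marker Mbp lies above Glul and Sparcl1 under brain (24.1%) and above Gja1 and Sparcl1 under colon (8.99%), Slc1a3 and Gjb6 rise to 7.79% and 8.42% under the label lung, and Slc1a2 stays at or below 0.425%.

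A list of 35 other genes in use as astrocyte markers was described in the same way. All but Fabp7 (91 reads) and Mt3 (45 reads) had at least 100 reads, which left 33. Of these, 25 were highest in the library labelled small intestine and 13 passed 10-fold, against 21.1% and 5.65% of all mRNAs. Among the 25, the interval included 1 for Fgfr3 (1.156-fold, 0.9987 to 1.338) and Cldn10 (1.085-fold, 0.8028 to 1.476). The median share of summed RPKM in that library was 56.19%, against 12.32% for all mRNAs. The 13 included Slc6a11 (244.7-fold), which takes up GABA, Acsbg1 (197.1-fold), an acyl-CoA synthetase, Bcan (82.5-fold), a matrix proteoglycan, and Aldoc (48.3-fold), the aldolase of brain. Mlc1, a membrane protein of astrocyte endfeet, was 14.8-fold (13.7 to 16) over the library labelled lung, where it had 79.1 RPKM. Of the remaining 20, Apoe, Clu and Cst3, which encode secreted proteins, were highest under small intestine by 2.36-fold, 1.92-fold and 1.54-fold.

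Another 8 were highest under other labels. Aldh1l1, the folate enzyme widely used to mark astrocytes, had 697.3 RPKM under colon, the library with kidney markers, and 39.9 RPKM under small intestine, or 0.0573 times (0.0533 to 0.0615). Slc4a4, a sodium bicarbonate cotransporter, had 701.4 RPKM under colon and 114 RPKM under small intestine. Aqp4, the water channel of endfeet, had 402.9 RPKM under kidney, the library with colon markers, and 162.7 RPKM under small intestine. Ndrg2 and Ppp1r3c were highest under heart, Sox9 under kidney, and Slc7a10 and Chrdl1 under lung. Chrdl1 had 13.89 RPKM (11.71 to 16.35) under lung and 13.47 RPKM (11.31 to 15.93) under kidney, and these intervals overlap.

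**Figure D5:**
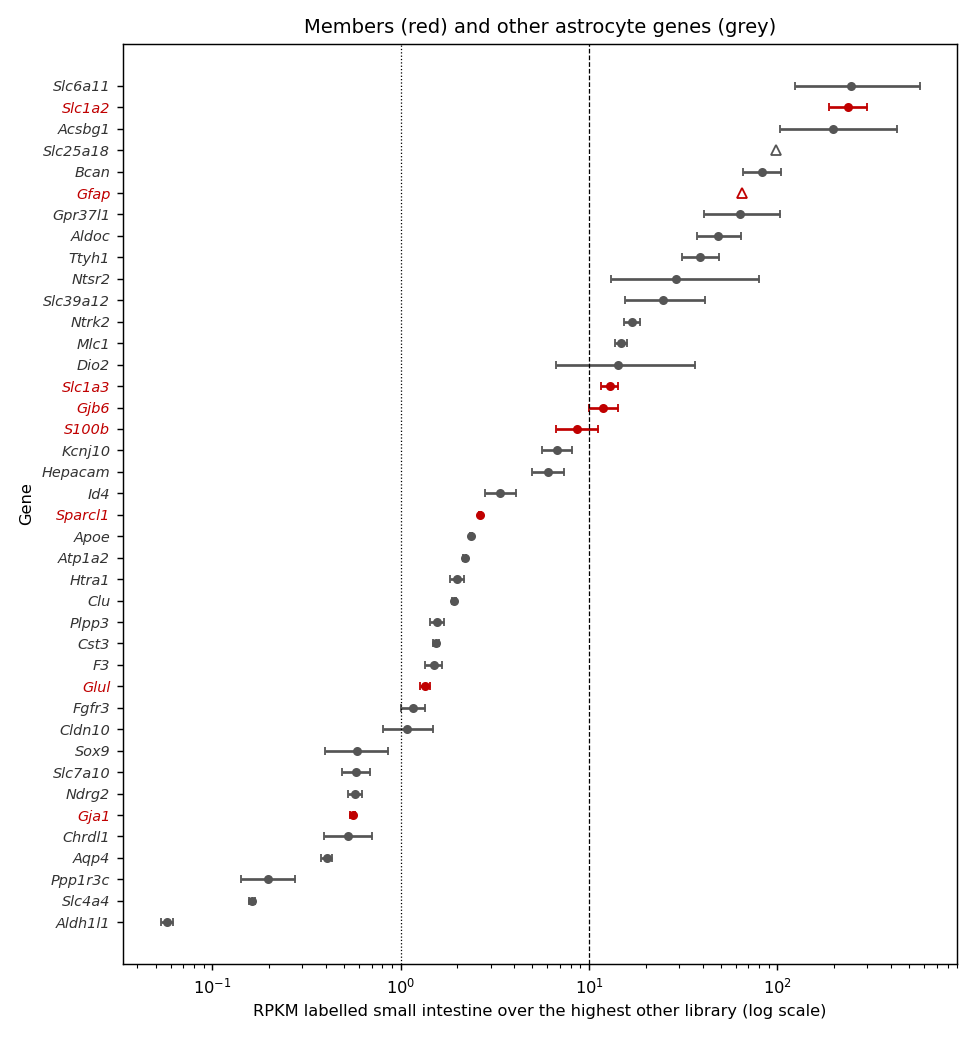
Ratio of RPKM (log axis) in the library labelled small intestine over the highest of the other 5, for the 8 genes (red) and 32 of the other astrocyte genes with at least 100 reads (grey), with 95% binomial intervals of counting error, open triangles for bounds against 3 reads, and lines at 1 and at 10. Slc1a2 (235.4) and Gfap (64.4 against 3 reads) lie near the top, Glul (1.35) and Gja1 (0.555) among the genes used in other organs.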

How the data were processed

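Ribo-seq was performed by the authors on 6 mouse tissues, with 1 library per label. The deposited values are RPKM, with 1 row for each mRNA. The submitters' processing notes name cutadapt, STAR and GRCm39. The methods are written for other libraries of the study and were taken to hold here. They discard reads under 15 nt or with more than 2 mismatches, keep uniquely mapped reads, use 1 mRNA per gene (the longest CDS, Ensembl release 107) and count reads on CDSs. Since RPKM is scaled by the library's total, a very abundant mRNA lowers the values of all others.

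RPKM multiplied by CDS length gave whole multiples of 1 read for 100% of values (tolerance 1e-06), which recovered the reads. Symbols came from GENCODE release M39 for 18427 of 18437 gene IDs, and sequences from its transcripts. No test was made, because each label had 1 library. Where all other libraries had 0 reads, a ratio was set against 3 reads. The members and gene lists were chosen with earlier results of these data known. Named genes are the members, the 3 mRNAs nearest to each, and genes of the lists. The alternatives varied the limit, the scaling, the pseudocount, the filter and the libraries compared. Some genes of the lists and some sequences are not reported here. The markers went against 4 labels, and the mapping was kept as labelled. Recovery, calls and intervals were tested on simulated data. The tools were Python 3.11.15, numpy 2.4.6, matplotlib 3.10.9, scipy 1.17.1 and pandas 2.3.3.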

Additional observations from a re-analysis of the deposited data

How the results depend on the processing

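The count of 4 restricted genes became 2 (Gfap and Slc1a2) at a 20-fold limit and 5 at a 5-fold limit, where S100b was added. Of all mRNAs with at least 100 reads, 4.09% passed at 20-fold and 7.61% at 5-fold, against 5.65% at 10-fold. S100b was also added, for a count of 5, with median-of-ratios size factors, with TPM and without the library labelled brain. Of all mRNAs, 6.06%, 5.92% and 6.08% passed under these settings, in that order. The removal of any library was chosen after seeing the data. The count was 3 with at least 500 reads required, since Gfap had 328 reads, and 4.98% of mRNAs with that many reads passed. The count was 4 with Kri1 or the mitochondrially encoded mRNAs left out of the totals and with reads thinned to the lowest total. It was also 4 with a pseudocount of 1 or 0.1, no filter on reads, or without the library labelled colon, heart, kidney or lung. In these settings between 4.55% (pseudocount of 1) and 6.45% (without lung) of mRNAs passed. Of 96 ratios of the 8 genes under alternatives, 73 moved by less than counting error and 22 moved by more. The remaining 1 changed direction, that of Gja1, which became 1.326 without the library labelled heart. Leaving out a library that was not the highest of the others cannot change a ratio, and these removals count among the 73. Without the highest other library, or for Gfap the highest limit, each of the 8 ratios moved by more than counting error or changed direction. Median-of-ratios size factors gave 20.41 for Slc1a3, 18.87 for Gjb6, 4.193 for Sparcl1 and 1.727 for Glul. Slc1a2 rose to 355.6 without the library labelled kidney. The ratio of Gfap is set by the floor, and was 34.26 with a pseudocount of 1, 333.6 with a pseudocount of 0.1 and 108.5 without the library labelled colon. Of 40 shares of summed RPKM under other scalings or thinning, 24 moved by more than counting error and 16 by less, with Sparcl1 at 66.06%, Glul at 35.61% and Gja1 at 26.48% with median-of-ratios size factors and Gja1 at 27.43% with TPM. Relative to RPKM, the log2 ratio of the library labelled small intestine to the mean of the others shifted over all mRNAs by 0.117 without Kri1, 0.18 with TPM and 0.275 with median-of-ratios size factors. No paired analysis was possible because each label had 1 library and no test was made. Levels from under 10 reads, as for S100b under the labels heart and kidney, have wide intervals, and differences between animals of 1 tissue could not be measured.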

Other observations

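The mRNAs nearest to each of the 8 genes were found by the distance between their percents of summed RPKM over the 6 libraries, among mRNAs with at least 100 reads. This describes likeness over 6 libraries and says nothing of function. Gfap tied at a distance of 0 with 37 mRNAs that had reads in the library labelled small intestine alone, the 3 listed being Slc25a18, a mitochondrial glutamate carrier and itself in the list of other astrocyte genes, the sodium-proton exchanger Slc9a5 and the dopamine transporter Slc6a3. Slc1a2 had Sez6, Ddx25 and Nfasc within 0.325 percentage points, and 462 mRNAs within 5 points. Slc1a3 was nearest to Kcnh1 (1.74 points), Faim2 and Nrcam (2.18 points each), and Gjb6 to Kndc1 (0.95 points), Faim2 (1.35 points) and Mlc1 (1.44 points), so both had Faim2 among their nearest. S100b was nearest to Dgki (2.0 points), Dnm1 (2.54 points) and Kcnc2 (2.8 points). The broader genes had few close neighbours. For Glul 1 mRNA, Emc7 (4.41 points), lay within 5 points, followed by Zfp74 (5.04 points) and Phc1 (5.51 points). For Gja1 and Sparcl1 no mRNA did, the nearest being Zbtb47 (7.24 points), Ulk1 (8.19 points) and 2310061I04Rik (8.33 points) for Gja1 and B3galt2 (5.64 points), Atp8a1 (6.31 points) and Egr1 (6.33 points) for Sparcl1.

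Markers of other cell types that the organs hold were spread over the labels as follows. The 4 smooth muscle markers were all highest in the library labelled kidney, with a summed 3835 RPKM there and 2958 RPKM under brain. Of 6 markers of pericytes and fibroblasts, 3 were highest under heart, 2 under lung and 1 under kidney. Of the 3 adipocyte markers with reads, 2 were highest under lung and 1 under brain, and of 3 cartilage markers 1 each was highest under heart, lung and small intestine.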
